A study of Mus musculus with 6 samples.

Results

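Colonic epithelial cells came from mice labelled wild type and from mice with the glucocorticoid receptor gene deleted in gut epithelium. The genes of 10 glycolytic enzymes were followed in these cells: Hk2, Gpi1, Pfkl, Aldoa, Tpi1, Pgk1, Pgam1, Eno1, Pkm and Ldha. They were chosen by name, 1 gene for each step except the Gapdh step, with earlier results of these data known. The gene taken for a step was not always its most abundant isoenzyme. All 10 were found among the 23725 genes of the deposited table. RNA was sequenced from 6 libraries of Percoll-enriched colonic epithelial cells of C57BL/6J mice, 3 labelled wild type and 3 labelled knockout. The knockout mice were of the genotype B6-Cg-Nr3c1-Vil-Cre/ERT2 (Nr3c1IEC-/-), in which Nr3c1, the gene of the glucocorticoid receptor, is deleted by a tamoxifen-activated Cre under a villin promoter, a promoter that works in gut epithelial cells. Tamoxifen was injected intraperitoneally for 5 days running, per the labels, and cells were isolated at day 7, counted from the first dose. The labels give no age and do not say whether the wild-type mice carried Cre or whether each library came from its own mouse. The p-values therefore set the difference between groups against the spread among these libraries, which may not be that among mice.

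Glycolysis turns glucose into pyruvate in the cytosol. The upper steps, from hexokinase to triose-phosphate isomerase, spend ATP and split the sugar into triose phosphates, and the lower steps, from Gapdh to pyruvate kinase, return ATP. Lactate dehydrogenase then regenerates NAD+ by turning pyruvate into lactate. Colonocytes are known for burning butyrate from the lumen as their main fuel, and glucocorticoids are known as regulators of glucose use in many tissues. Many glycolytic genes are textbook targets of the hypoxia-inducible factors, which bind DNA at the core letters ACGTG.

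Values are read counts divided by 1 size factor per library, called normalized reads below, and the libraries held 10089313 to 12030844 reads counted to genes. Of 12837 genes with enough reads to be tested, 30.5% differed between the groups at a limma adjusted p below 0.05, 15.0% higher and 15.4% lower in the knockout, so a called difference was common. The targeted gene Nr3c1 had 1120, 967 and 197 normalized reads in wild type replicates 1 to 3 and 145, 123 and 175 in knockout replicates 1 to 3. The library labelled wild type replicate 3 lay near the knockout level and goes against its label at this gene, and the calls are also given without it. The log2 change of Nr3c1 was -2.03 (two-sided exact permutation p = 0.1, the smallest that 3 against 3 libraries allow) and -2.83 without that library.

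The glycolytic enzymes were mostly more abundant in the knockout libraries. Of the 10, all tested, 7 rose, 1 fell and 2 missed the threshold, against the background of 15.0% higher and 15.4% lower. Their median log2 change, on the scale log2(normalized reads + 1) and knockout minus wild type, was 0.90, beside 0.01 over all tested genes. The rises were those of Hk2, Tpi1, Pgk1, Pgam1, Eno1, Pkm and Ldha, the fall was that of Pfkl, and Gpi1 and Aldoa did not pass. The ranges of the 3 and 3 libraries did not overlap for 9 of the 10 genes, where 50.7% of all tested genes did not overlap. Without wild type replicate 3 the same counts of 7 raised and 1 lowered were obtained. In bulk RNA, fewer cells of a type and less RNA per cell cannot be told apart.

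Hk2 (Entrez 15277, GRCm38 chromosome 6, 82725025 to 82774454) encodes hexokinase 2, the inducible enzyme that traps glucose as glucose 6-phosphate. It had 2156, 2261 and 3099 normalized reads in wild type replicates 1 to 3 and 9099, 3901 and 7375 in knockout replicates 1 to 3. All knockout libraries lay above all wild-type libraries, but they also differed most among themselves, with an SD of 39.0% of the mean. The log2 change was 1.37 (95% confidence interval 0.66 to 2.08, limma adjusted p = 0.0142). The call was lost when wild type replicate 1 was left out (log2 change 1.27, limma adjusted p = 0.0599) and when replicate 2 of that group was (1.31, limma adjusted p = 0.0570).

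Gpi1 (Entrez 14751, chromosome 7, 34201327 to 34230336), glucose-6-phosphate isomerase, had 9645, 10770.0 and 8387 normalized reads in wild type and 10167, 13613 and 11314 in the knockout. The groups overlapped, since knockout replicate 1 lay below wild type replicate 2, and the log2 change of 0.28 (interval -0.10 to 0.66) did not pass (limma adjusted p = 0.216). Pfkl (Entrez 18641, chromosome 10, 77986947 to 78009807) encodes the liver-type subunit of phosphofructokinase, the committed and most regulated step of the pathway. It had 3817, 4961 and 3498 normalized reads in wild type and 2753, 2915 and 3010.1 in the knockout. It was the only 1 of the 10 that was lower in every knockout library, with a log2 change of -0.48 (interval -0.82 to -0.15, limma adjusted p = 0.0401). The call was lost when wild type replicate 1 or 2 or any one of the knockout libraries was left out (-0.34 to -0.53, limma adjusted p = 0.0709 to 0.120), and it held when wild type replicate 3 was (-0.59, limma adjusted p = 0.0335).

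Aldoa (Entrez 11674, chromosome 7, 126795234 to 126800994), the aldolase that splits fructose 1,6-bisphosphate, had 14666, 15801 and 15363 normalized reads in wild type and 17418, 21415 and 17999 in the knockout. The groups did not overlap, but the log2 change of 0.31 (interval -0.04 to 0.65) did not pass (limma adjusted p = 0.15). Tpi1 (Entrez 21991, chromosome 6, 124810586 to 124814158), which interconverts the 2 triose phosphates, had 6592, 6909 and 7114 in wild type and 10595, 11989 and 11984 in the knockout. Its libraries were tight in both groups, with SDs of 3.82% and 6.97% of the mean, and the log2 change was 0.74 (interval 0.46 to 1.02, limma adjusted p = 0.00472).

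All 4 members between the Gapdh step and pyruvate rose. Pgk1 (Entrez 18655, chromosome X, 106187100 to 106203699), phosphoglycerate kinase, which makes the first ATP of the pathway, had 5146, 5053 and 6815 normalized reads in wild type and 13827, 15438 and 15419.9 in the knockout. Every knockout library held at least 2.03 times the highest wild-type value, and the log2 change was 1.40 (interval 1.05 to 1.76, limma adjusted p = 0.00124). Pgam1 (Entrez 18648, chromosome 19, 41911871 to 41918665), the mutase that moves the phosphate from carbon 3 to carbon 2 of glycerate, had 3247, 3267 and 3739 in wild type and 5745, 6611 and 5456 in the knockout. Its log2 change was 0.79 (interval 0.51 to 1.08, limma adjusted p = 0.00409), with no overlap.

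Eno1 (Entrez 13806, chromosome 4, 150236708 to 150248879), enolase, which makes phosphoenolpyruvate, had 1584, 1558 and 1758 normalized reads in wild type and 4000.3, 4510.3 and 3790.1 in the knockout. The log2 change was 1.33 (interval 1.07 to 1.59, limma adjusted p = 0.000576), the smallest adjusted p of the 10. Its reads are split with Eno1b, a retrotransposed copy. Of the 50-base windows of the longest Eno1 coding transcript, 70.5% also occur in Eno1b, and the table gave Eno1b 4051, 4285 and 4767 normalized reads in wild type and 10789, 11801 and 10193 in the knockout. Eno1 and Eno1b summed, a choice made after their values were seen, gave 6001 ± 465 and 15028 ± 1182 (SD, n = 3) and a log2 change of 1.32 (limma adjusted p = 0.000829). The difference between the groups was nearly the same on either count. Since most windows are shared, the sum is no independent check of Eno1.

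Pkm (Entrez 18746, chromosome 9, 59656576 to 59679372) encodes muscle-type pyruvate kinase, whose M1 and M2 splice forms cannot be told apart in counts per gene. It had 11672, 12656 and 14337 normalized reads in wild type and 34152, 35641.5 and 31517 in the knockout. This was the clearest gap among the 10: the lowest knockout library held 2.20 times the highest wild-type library. The log2 change was 1.39 (interval 1.03 to 1.76, limma adjusted p = 0.00133). Ldha (Entrez 16828, chromosome 7, 46842274 to 46855627), the lactate dehydrogenase subunit that favours lactate formation, had 13128, 13805 and 15312 in wild type and 25609, 31919.7 and 27026 in the knockout. The groups did not overlap, with a lowest knockout value 1.67 times the highest wild-type value, and the log2 change was 0.998 (interval 0.63 to 1.37, limma adjusted p = 0.00458).

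**Figure D1:**
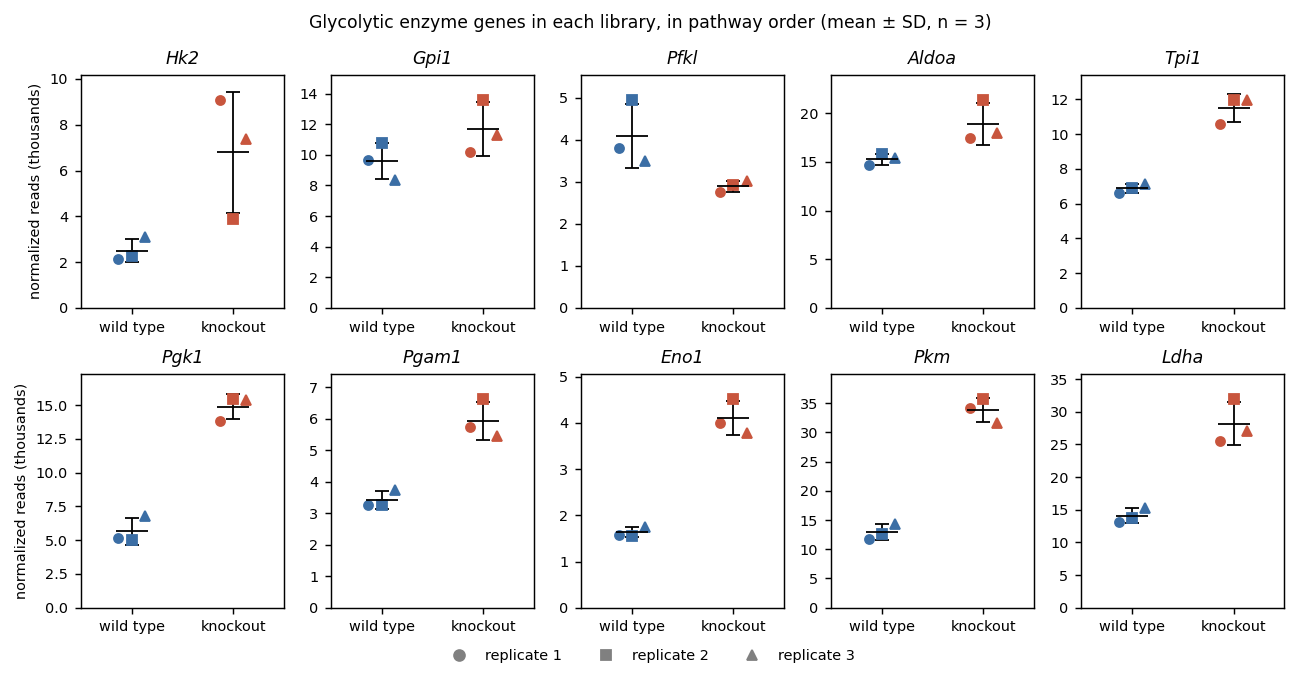
Normalized reads (vertical axes, each starting at 0, scaled as labelled) of the 10 glycolytic genes in pathway order, for 3 wild-type and 3 knockout libraries; points are libraries, marked by replicate, and bars are mean ± SD. All knockout points lie above all wild-type points except for Gpi1, where the groups overlap, and Pfkl, where they lie below.

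Some reads of these genes fit more than 1 locus, and how the authors counted such reads is not given in the sources used here. A gene model other than its own held 68.0% of the 50-base windows for Pgk1, 41.5% for Pgam1, 34.4% for Pkm, 25.3% for Gpi1, 16.6% for Ldha, 13.5% for Aldoa, 7.51% for Tpi1, 0.05% for Pfkl and 0% for Hk2. The levels of Pgk1, Pgam1, Eno1 and Pkm are therefore uncertain. Exons of Aldoa and Tpi1 overlap those of a gene on the other strand, Fam57b and Spsb2, by at most 25 and 34 bases, and those of Gpi1 overlap the noncoding Gm26762 by up to 145, which non-stranded libraries cannot separate. Pkm shares up to 167 exon bases with the unclassified gene model Gm49759 on its own strand.

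Together the 10 genes took a larger part of the reads counted to genes in the knockout. Their summed reads were 0.669%, 0.695% and 0.725% of all reads counted to genes in wild type replicates 1 to 3 and 1.08%, 1.27% and 1.17% in knockout replicates 1 to 3. Counting error is small at this depth, the widest Wilson 95% interval running from 1.26% to 1.27%. The means were 0.696% ± 0.0280 and 1.17% ± 0.0940 (SD, n = 3). With Gapdh added they were 0.914% ± 0.0382 and 1.56% ± 0.144. No test was made on these sums, since the genes were chosen as a group.

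Per kilobase of exon, the order of the members shifted between the groups. In wild type, the level per kilobase was highest for Ldha (7431 ± 590 normalized reads per kilobase, SD, n = 3), then Aldoa (5956 ± 223), Pkm (4959 ± 519), Tpi1 (3896 ± 149), Gpi1 (3329 ± 413) and Pgk1 (3107 ± 543). Gpi1 and Pgk1 overlapped in their libraries, and the other neighbours named did not. Pgam1 (1925 ± 157), Pfkl (1097 ± 206), Eno1 (641 ± 42.7, or 2357 with Eno1b) and Hk2 (446 ± 92.1) followed. In the knockout, Ldha (14873 ± 1747) and Pkm (12994 ± 804) led with overlapping libraries, and Pgk1 (8162 ± 507) overlapped with Aldoa (7386 ± 842). Tpi1 (6532 ± 455), Gpi1 (4056 ± 608), Pgam1 (3345 ± 338.6) and Eno1 (1610 ± 145, or 5903 with Eno1b) followed. Hk2 (1210 ± 472) and Pfkl (775 ± 34.9) were last. With Eno1b counted, the mean of Eno1 would stand above that of Pgam1 in wild type and above that of Gpi1 in the knockout. The knockout libraries also overlapped between Aldoa and Tpi1, Gpi1 and Pgam1, Eno1 and Hk2, and Hk2 and Pfkl.

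Gapdh, the step missing from the 10, and the isoenzymes of the other steps were counted next. Of 20 such genes 15 were tested, of which 4 rose and 3 fell, where 15.0% of all tested genes rose and 15.4% fell. Gapdh, which oxidises the triose phosphate and yields NADH, rose from 23717 ± 1342 to 46101 ± 6660 normalized reads (log2 change 0.95, limma adjusted p = 0.00888). Bpgm, which makes 2,3-bisphosphoglycerate, rose from 453 ± 55.7 to 759 ± 38.5 (0.75, limma adjusted p = 0.00472). Hk3 and Pfkp rose, and Hkdc1, Pfkm and Ldhb fell. Pgk2, Eno2, Eno4 and Ldhc were among those too low to be tested. With knockout replicate 1 left out 7 genes rose, and with wild type replicate 3 left out 4 rose and 3 fell.

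**Figure D2:**
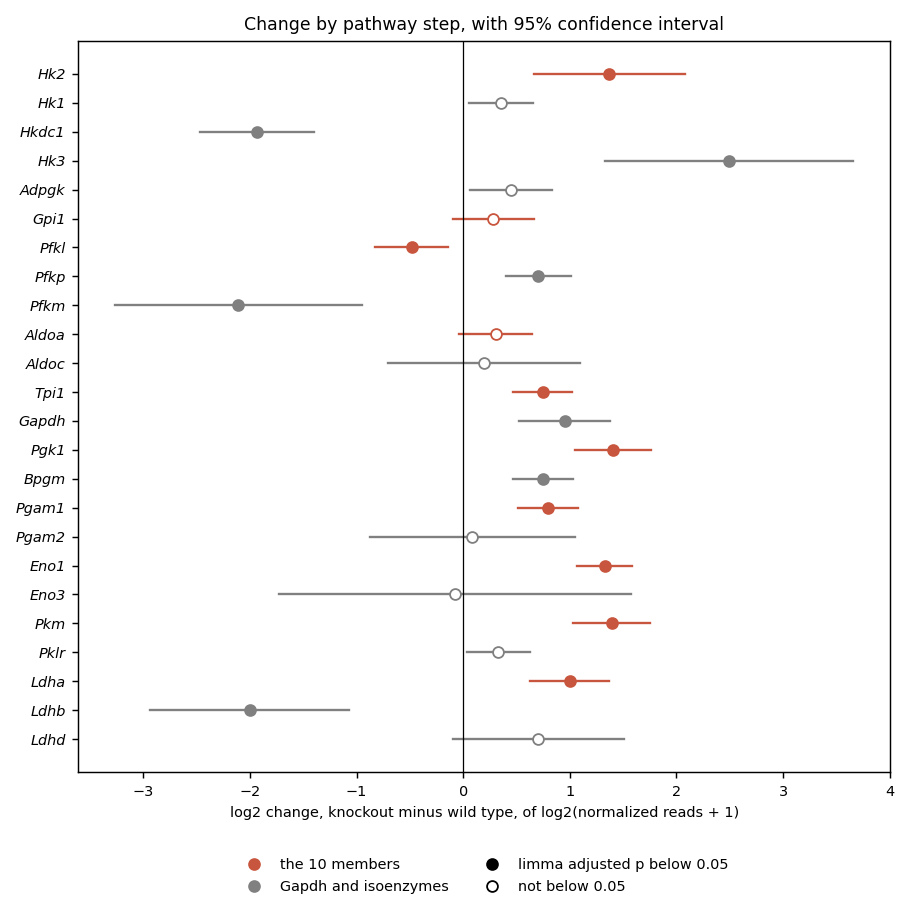
Log2 change, knockout minus wild type, of log2(normalized reads + 1), with its 95% confidence interval (lines), for the 10 members (red) and Gapdh with the tested isoenzymes reported here (grey) in pathway order; filled points passed a limma adjusted p of 0.05. The members from Tpi1 to Ldha lie to the right of 0, and Pfkl, Hkdc1, Pfkm and Ldhb are filled points to the left.

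The hexokinase genes differed in direction. Hkdc1, a hexokinase domain protein of epithelia, had 802, 1047 and 613 normalized reads in wild type and 222, 163 and 252 in the knockout, without overlap (log2 change -1.93, limma adjusted p = 0.00163). Hk1, the housekeeping form, had 3119 ± 356 and 3983 ± 373 (SD, n = 3; 0.35, limma adjusted p = 0.0709). Hk3, a form abundant in myeloid cells, was close to the detection limit in wild type (2.12, 1.96 and 3.64) and reached 35.6, 14.5 and 12.4 in the knockout (2.49, limma adjusted p = 0.0100). Adpgk, an ADP-dependent glucokinase, had 117 ± 9.73 and 161 ± 23.0 (0.45, limma adjusted p = 0.0734).

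At phosphofructokinase the platelet-type subunit Pfkp had 2337, 2644 and 2866 normalized reads in wild type and 3803, 4175 and 4820.2 in the knockout, a log2 change of 0.70 (limma adjusted p = 0.00790), while Pfkl was lower. The muscle-type Pfkm fell from 262, 250.3 and 189 to 23.1, 113 and 56.3 (-2.11, limma adjusted p = 0.0176). Ldhb, the subunit that favours pyruvate formation, fell from 113, 99.7 and 125 to 19.9, 54.8 and 18.1 (-2.002, limma adjusted p = 0.00987). For these 3 genes the groups did not overlap, as for 50.7% of all tested genes.

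For 5 further isoenzymes the difference did not pass. Aldoc, an aldolase of brain, had 207 ± 26.9 and 263 ± 133 normalized reads (SD, n = 3; log2 change 0.19, limma adjusted p = 0.722). Eno3, muscle enolase, had 643 ± 260 and 819 ± 701 (-0.08, limma adjusted p = 0.942), and Pgam2, the muscle mutase, 12 ± 5.84 and 12.1 ± 2.42 (0.08, limma adjusted p = 0.888). Pklr, the liver and red-cell pyruvate kinase, had 1215 ± 77.4 and 1536 ± 211 (0.33, limma adjusted p = 0.0872), and Ldhd, the D-lactate dehydrogenase, 110 ± 17.3 and 194 ± 97.3 (0.70, limma adjusted p = 0.155).

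The balance between a member and an isoenzyme was compared for 9 pairs, as the difference of their log2 levels in each library. The ranges of the groups did not overlap for 7 of the 9 pairs, where 50.7% of single tested genes did not overlap. No such share was computed for pairs of genes, and pairs that share a member are not independent. Pfkl minus Pfkp changed sign, from 0.71, 0.91 and 0.29 in wild type to -0.47, -0.52 and -0.68 in the knockout. The difference between the groups was -1.19. Ldha minus Ldhb went from 6.96 ± 0.13 to 9.96 ± 0.70 (SD, n = 3), a difference of 3.0, which is 8.0-fold in the ratio. Hk2 minus Hkdc1 went from 1.62 ± 0.64 to 4.93 ± 0.39. Pkm minus Pklr went from 3.40 ± 0.13 to 4.47 ± 0.24. For each of the 7 pairs the two-sided exact permutation p was 0.1, the smallest possible here, and 0.129 after Benjamini-Hochberg adjustment over the 9, so none could pass 0.05. Aldoa minus Aldoc (difference 0.11, exact permutation p = 0.9) and Eno1 minus Eno3 (1.40, exact permutation p = 0.3) overlapped between the groups.

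**Figure D3:**
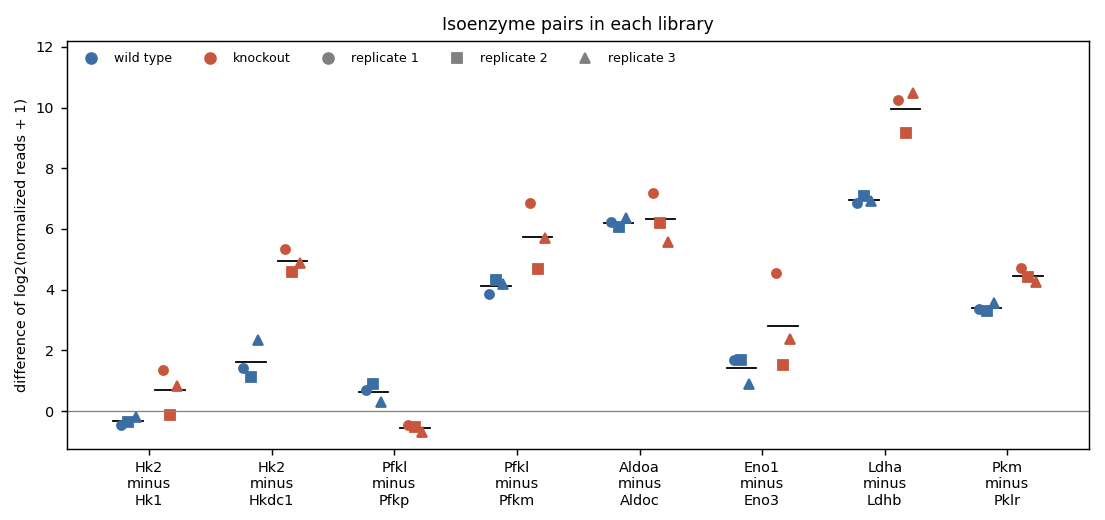
Difference of log2(normalized reads + 1) between a member and its isoenzyme (vertical axis) for 8 of the 9 pairs, in 3 wild-type (blue) and 3 knockout (red) libraries; short lines are group means. The Pfkl minus Pfkp points lie above 0 in wild type and below 0 in the knockout, and the Aldoa minus Aldoc points overlap.

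Summed over the isoenzymes of a step and divided by exon length, a sum chosen after the values were seen and given without a test, phosphofructokinase overlapped between the groups. It came to 1784 ± 212 normalized reads per kilobase in wild type and 1789 ± 158 in the knockout (SD, n = 3), while the part from Pfkl went from 61.2% ± 4.70 to 43.4% ± 1.92. Pyruvate kinase went from 5358 ± 531 to 13498 ± 798 per kilobase, a ratio of 2.52, with 92.5% and 96.3% from Pkm. Enolase, with Eno1b counted at the exon length of Eno1, had a ratio of 2.32, lactate dehydrogenase 1.98 and hexokinase 1.58. The part of hexokinase from Hk2 was 31.5%, 31.0% and 37.9% in wild type and 66.8%, 42.8% and 58.6% in the knockout.

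**Figure D4:**
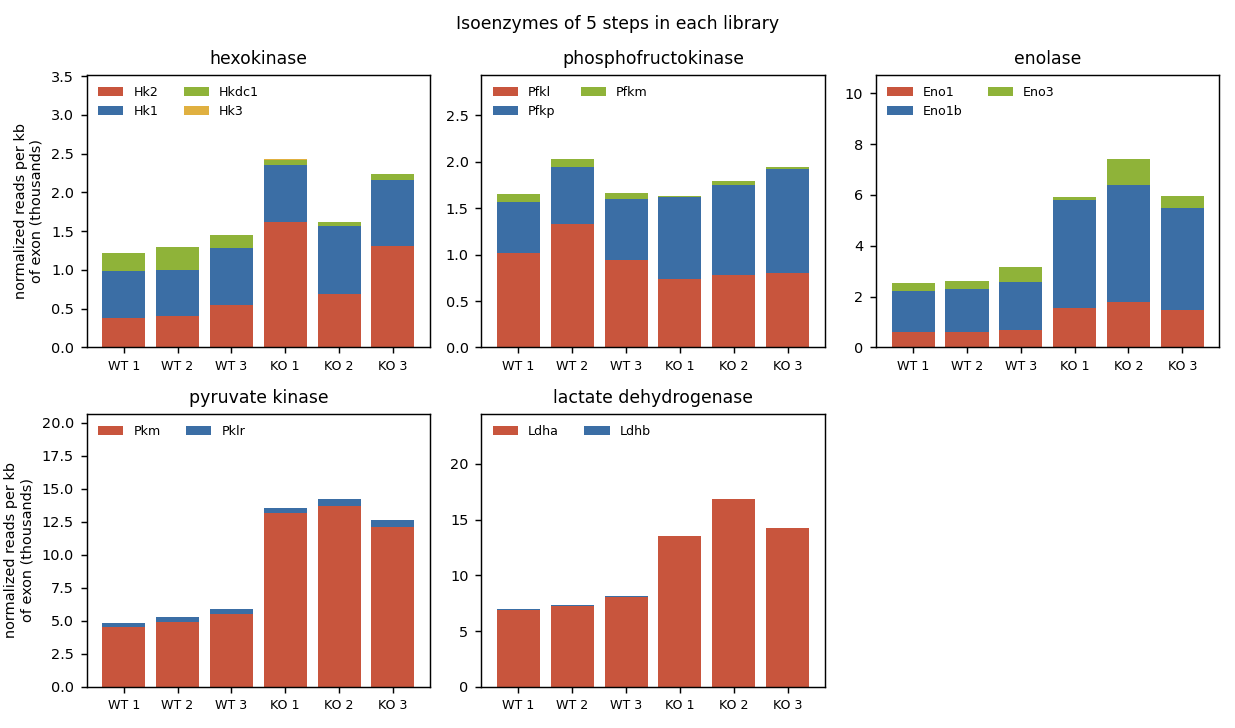
Normalized reads per kilobase of exon (vertical axes from 0, scaled as labelled), stacked by isoenzyme, for 5 steps in each wild-type (WT) and knockout (KO) library. The phosphofructokinase bars are of like height in both groups with a larger Pfkp part in the knockout, and the pyruvate kinase, enolase and lactate dehydrogenase bars are taller in the knockout.

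The libraries of a group did not all stand in the same order. Knockout replicate 2 was the highest knockout library for 8 of the 10 members, all but Hk2 and Pfkl, and knockout replicate 1 the lowest for 6. Among the wild-type libraries, replicate 3, the one with little Nr3c1, was the highest for 7 members, all of them genes that rose, so leaving it out gave larger log2 changes (1.54 for Pgk1, 1.47 for Pkm, 1.53 for Hk2). The exceptions were Gpi1, Pfkl and Aldoa, highest in wild type replicate 2.

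Markers of other cells were measured beside these genes. Over all tested genes 15.0% rose and 15.4% fell. Of 14 myeloid markers listed 12 were tested, of which 9 rose and 0 fell. Their summed level was 665 to 1309 normalized reads in wild type and 3459 to 8577 in the knockout. S100a8 and S100a9 were the largest parts of the knockout sum, with means of 1227 ± 801 and 1189 ± 1017 (SD, n = 3). Adgre1, Cd68 and Lyz2 did not pass. Mpo was at 0 in every library. The sum was highest in knockout replicate 1, as were Hk2 and Hk3. Among the knockout libraries Pgk1, Tpi1 and Ldha were lowest in replicate 1, and Pgam1, Eno1 and Pkm in replicate 3. Of 12 lymphoid markers 2 were tested and 1 rose, with sums of 65.5 to 166 and 175 to 436, and Cd4 and Ms4a1 had 0.911 to 5.73 normalized reads. Stromal and muscle markers (1 of 8 tested rose) summed to 679 to 1226 and 910 to 2710, endothelial markers to 46.0 to 48.3 and 19.7 to 40.1, and erythroid markers to 56.5 to 243 and 144 to 635. Of 16 cell cycle genes 8 rose and 0 fell, with sums of 4573 to 8892 and 10100.5 to 15032.5. The part of these cells and of proliferation in the changes of the glycolytic genes was not tested. Colonic epithelial markers, 3 of 11 raised and 2 lowered, summed to 316094 to 360239 in wild type and 338532 to 387801 in the knockout.

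Genes on either side of glycolysis were counted from lists made by function. The shares to read beside each count are those of all tested genes, 15.0% raised and 15.4% lowered. Of 18 genes of sugar and lactate transport 13 were tested, of which 2 rose and 5 fell. Slc16a3, the monocarboxylate carrier MCT4 that exports lactate from glycolytic cells, rose from 49.9, 145 and 98.4 normalized reads to 906, 829 and 912 (log2 change 3.29, limma adjusted p = 0.0010). Slc2a1, the basal glucose transporter GLUT1, rose from 3408 ± 170 to 5866 ± 780 (SD, n = 3; 0.78, limma adjusted p = 0.00546). Slc2a10 fell from 131 ± 26.4 to 39.6 ± 13.3 (limma adjusted p = 0.00451), and Slc16a7, the carrier MCT2, from 18.2 ± 1.99 to 3.38 ± 1.60 (limma adjusted p = 0.00765). The genes that fell numbered 3 with wild type replicate 1 or 2 left out and 4 with replicate 3 of that group left out, and 4 rose with knockout replicate 2 left out.

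Among 21 regulators of the pathway 20 were tested, of which 6 rose and 6 fell. Pfkfb3, the kinase that makes fructose 2,6-bisphosphate, the strongest activator of phosphofructokinase, rose from 10.6, 19.6 and 28.2 normalized reads to 725, 192 and 599 (log2 change 4.52, limma adjusted p = 0.00157). Hif1a, a hypoxia-inducible factor, rose from 1665, 1490.2 and 2516 to 6982, 4419 and 5839 (1.62, limma adjusted p = 0.00329). Egln3, a prolyl hydroxylase that marks these factors for decay and is itself their target, rose from 283, 323 and 288 to 2291, 1892 and 2609 (2.91, limma adjusted p = 5.48e-05). Mlxipl, the glucose-sensing factor ChREBP, fell from 204, 223 and 157 to 37.7, 57.9 and 73.5 (-1.80, limma adjusted p = 0.00358). For all 4 genes the groups did not overlap, as for 50.7% of all tested genes. With wild type replicate 3 left out, 6 rose and 5 fell.

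At the entry of pyruvate into mitochondria 1 of 15 genes rose and 4 fell, beside 15.0% and 15.4% of all tested genes. Pdk4, a kinase that shuts off pyruvate dehydrogenase and a known glucocorticoid target, fell from 859, 731 and 253 normalized reads to 26.2, 29.0 and 7.64 (log2 change -4.82, limma adjusted p = 0.00178). Pdk1, a kinase with the same substrate, rose from 499, 554 and 534 to 781, 996 and 1196 (0.88, limma adjusted p = 0.00699). The sister kinase gene Pdk2 fell from 650.1 ± 117 to 255 ± 152 (limma adjusted p = 0.0347), and Pdp1, the phosphatase that switches the complex back on, fell from 1007 ± 261 to 509 ± 96.3 (limma adjusted p = 0.0125). With any one wild-type library or knockout replicate 3 left out 2 genes fell, and with knockout replicate 1 left out 2 rose.

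Of 13 genes of gluconeogenesis, fructose use and glycerol phosphate, 10 were tested, 1 rose and 6 fell. Pck1, the enzyme that draws carbon out of the citrate cycle towards glucose, fell from 2154, 3575 and 1740.4 normalized reads to 59.8, 448 and 256 (log2 change -3.63, limma adjusted p = 0.00713). Khk, ketohexokinase, the entry of fructose, fell from 235 ± 58.0 to 76.4 ± 23.5 (-1.63, limma adjusted p = 0.00660). Gpd1l fell from 1684 ± 209 to 749.8 ± 120.5 (limma adjusted p = 0.00240), and Gpd2, the mitochondrial glycerol phosphate dehydrogenase, rose from 799 ± 120 to 1537 ± 270 (limma adjusted p = 0.00655). Those that fell numbered 3 with wild type replicate 1 or 2 left out and 5 with replicate 3 left out.

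Of the pentose phosphate pathway, which branches off at glucose 6-phosphate and makes NADPH and ribose, 5 of 8 tested genes rose and 0 fell. G6pdx, its first enzyme, rose from 944, 920 and 939 normalized reads to 1719, 1569.7 and 1456 (log2 change 0.76, limma adjusted p = 0.00253). Pgd, the other enzyme that yields NADPH, rose from 4496 ± 304 to 8415 ± 910 (SD, n = 3; 0.90, limma adjusted p = 0.00313). Rpe rose from 461 ± 22.9 to 633 ± 41.2 and H6pd from 278 ± 85.4 to 589 ± 164 (limma adjusted p = 0.0168 and 0.0218). With any one wild-type library or knockout replicate 3 left out 3 genes rose, and with knockout replicate 2 left out 1 gene fell.

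Of 17 citrate cycle genes 0 rose and 8 fell, with a median log2 change of -0.34, beside 0.90 for the 10 glycolytic genes. Idh2, the NADP-dependent mitochondrial isocitrate dehydrogenase, fell from 1899, 1884 and 1569 normalized reads to 867, 1084 and 903 (-0.91, limma adjusted p = 0.00317). Suclg2 fell from 3836 ± 206 to 2456 ± 218 (-0.65, limma adjusted p = 0.00577), Suclg1 from 3988 ± 113 to 2801 ± 413 and Idh3b from 3293 ± 104 to 2428 ± 199.8 (limma adjusted p = 0.0219 and 0.0179). The number lowered was 2 with wild type replicate 1 or 2 left out, 4 with replicate 3 of either group and 5 with knockout replicate 1. The difference between the lists was not tested.

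**Figure D5:**
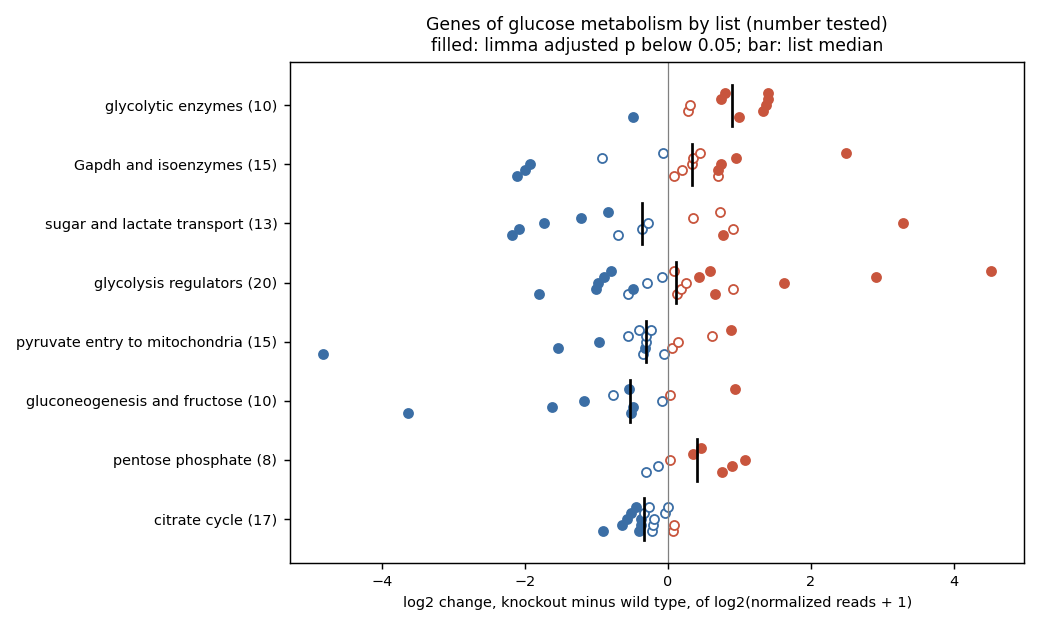
Log2 change, knockout minus wild type (horizontal axis), of each tested gene in 8 lists of glucose metabolism, with the number tested in brackets; filled points passed a limma adjusted p of 0.05 and the vertical bar is the list median. The glycolytic enzymes have a median of 0.90, and the citrate cycle a median of -0.34 with no filled point to the right of 0.

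The promoters of the 10 genes were searched for ACGTG, the core of hypoxia-response elements, on both strands of the 250 bases before and 50 after each annotated start. All 10 genes had an entry, with 16 starts. The motif was in 7 of the 16 windows, beside 25.1% of the 12960 windows of tested genes and 19.6% of all 32851. By gene it was in 6 of the 10, beside 28.9% of the 10244 tested genes that had an entry. The members had 16 windows for 10 genes, and those tested genes 12960 for 10244. A gene with more windows has more chances to hold the letters. The Aldoa windows that hold it overlap and share the same match, so the count by window counts that site more than once. The letters CACGTG, an E-box, which hold ACGTG on both strands, were in 1 of the 16 windows (9.6% of windows of tested genes). AGAACA, the shorter letters of a glucocorticoid response element, was in 3 windows (12.9%), or 2 of the 10 genes (15.1% of tested genes). AGAACA followed after 3 bases by TGT was in 0 windows (0.3%). A match is a string of letters and does not show that a factor binds.

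The stretches that hold the matches upstream of the start are printed for 5 of these genes, since they are members of 1 pathway that share the letters. Sequences are from RefSeq, build GRCm38.p6, 5′ to 3′ on the strand of the gene, with ACGTG, its reverse complement CACGT or the E-box in capitals.
Pgk1, chrX:106186930-106186993, plus strand: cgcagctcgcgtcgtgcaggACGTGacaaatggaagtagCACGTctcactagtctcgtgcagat
Ldha, chr7:46845639-46845794, plus strand: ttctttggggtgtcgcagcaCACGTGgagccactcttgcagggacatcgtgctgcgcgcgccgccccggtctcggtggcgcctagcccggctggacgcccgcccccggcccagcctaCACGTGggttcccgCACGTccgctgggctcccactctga
Hk2, chr6:82774482-82774700, minus strand: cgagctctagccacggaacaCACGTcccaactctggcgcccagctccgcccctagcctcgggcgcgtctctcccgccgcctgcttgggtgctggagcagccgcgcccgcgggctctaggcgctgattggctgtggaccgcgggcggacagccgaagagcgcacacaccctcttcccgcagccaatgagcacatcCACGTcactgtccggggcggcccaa
Pgam1, chr19:41911737-41911781, plus strand: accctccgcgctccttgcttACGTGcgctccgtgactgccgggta
Aldoa, chr7:126799356-126799400, minus strand: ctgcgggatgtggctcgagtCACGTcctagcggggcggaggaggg

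The Pgk1 stretch holds the letters at 150 and 131 bases before the start, on opposite strands. In Ldha they lie at 145, 48 and 34 bases before the start, the first and second as full E-boxes. Hk2 has them at 226 and 52. Of the genes that rose, Pgk1, Ldha, Hk2, Pgam1 and Pkm held the motif in a window, while Eno1 and Tpi1 did not, and neither did Pfkl, which fell, nor Gpi1. The Pkm window holds 2 matches. The 1 upstream of the start lies in an annotated exon and is not printed, and the other does not lie within the bases before the start. Aldoa, which did not pass the threshold, held it as well.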

How the data were processed

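The deposited signal is a read count per gene over the library's size factor, as the authors computed it. The submitters' processing notes name FastQC, TopHat, DESeq2 and mm10 without versions. Within 0.001, 100% of values were whole multiples of 1 step per library, so whole reads were recovered. Which counter, annotation and filters were used is not given in the sources used here. Of 23725 Entrez identifiers, 23666 matched a RefSeq symbol (GRCm38.p6). Non-stranded mRNA libraries were made, per the labels' protocols.

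A gene was tested if at least 3 of the 6 libraries held 10 normalized reads or more. The test was limma 3.58.1 in R 4.3.3 (prior with an intensity trend) on log2(value + 1), Benjamini-Hochberg adjusted over all 12837 genes, with a threshold of 0.05. Every limma adjusted p is from this fit, except where a library was left out or Eno1 and Eno1b were summed. Those are from the same test refitted on the changed data. Log2 changes understate those of low genes. Exon lengths are unions over coding transcripts of GENCODE release 21 for mouse (GRCm38). Isoenzyme pairs were tested by two-sided exact permutation. The alternatives were the recovered reads in edgeR 4.0.16 and in DESeq2 1.42.0, other pseudocounts (0.5 and 5), other filters (none and 50), other scalings (TMM, upper quartile, quantile), a robust prior, weights per library, and each library left out. The test was checked on simulated data. The members and lists were chosen with earlier results of these data known. Named were all 10 members, the tested isoenzymes and, per other list, up to 4 genes with the smallest adjusted p. Some genes of the lists, counted in the totals, are not reported here by name. Protein sequences were not used here. No replicate pair agreed within sampling noise (chi-square per degree of freedom 15 to 57.5). The labels give no batch, and replicates were numbered by accession.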

Additional observations from a re-analysis of the deposited data

How the results depend on the processing

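Over 17 alternatives per gene, Tpi1, Pgk1, Pgam1, Eno1, Pkm and Ldha passed in all 17, Hk2 in 15, Pfkl in 12 and Gpi1 and Aldoa in 0, and no member changed direction. The recovered reads gave 1887 raised and 2006 lowered genes with edgeR and 2148 and 2016 with DESeq2, and 7 raised and 1 lowered member with both. No paired analysis was possible because the replicate numbers only name samples in accession order.

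Leaving out 1 library at a time moved these counts: all genes raised 970 to 1782 and lowered 953 to 1825 (970 and 953 without wild type replicate 1, 997 and 963 without replicate 2), members raised 6 to 7 and lowered 0 to 1, isoenzymes raised 4 to 7, transport raised 2 to 4 and lowered 3 to 6, pyruvate entry raised 1 to 2 and lowered 2 to 6, gluconeogenesis and fructose lowered 3 to 5, pentose phosphate raised 3 to 4 and lowered 0 to 1, and citrate cycle lowered 2 to 8. These fits hold fewer samples. Aldoa minus Aldoc was -0.32 to 0.49, turning sign without knockout replicate 1. A filter at 50 gave 3 lowered transport genes, with fewer genes tested. Library weights gave 2 raised and quantile normalization 7 lowered genes of pyruvate entry (the cause was not tested).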

Other observations

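Several genes of sugar use varied more among the 3 knockout libraries than between the groups. Eno3 had 172, 1563 and 723 normalized reads in knockout replicates 1 to 3 and 497, 489 and 943 in wild type. Aldoc had 118, 290 and 380 in the knockout and 195, 238 and 188 in wild type. The sodium-coupled glucose transporter gene Slc5a1 had 742, 1898 and 1410.1 in the knockout and 1527, 1435 and 1608 in wild type (limma adjusted p = 0.509). Fbp2, a fructose bisphosphatase, had 1732 ± 32.6 in wild type and 1787 ± 305 in the knockout (SD, n = 3, limma adjusted p = 0.882). These genes were chosen after their values were seen.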
